A study of Sus scrofa with 2 samples.

Results

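The 8 plasma cell genes described here are PRDM1, IRF4, XBP1, ELL2, CREB3L2, MZB1, JCHAIN and SDC1, out of 19550 protein-coding genes on the placed chromosomes of the pig assembly Sscrofa11.1. The data were in situ Hi-C contacts of whole pig spleen, a method that joins and sequences DNA fragments lying close together in fixed nuclei. There was 1 group of 2 biological replicates, with no treatment, and the deposited lists of 3410 loops and 1927 topologically associating domains (TADs) cover the series as a whole. The genes were chosen by their part in plasma cells and by their loops in this list, with earlier results known, so their numbers of loops, spans and contacts are a description and carry no test. Each gene was found by its symbol, and each was present once. Neighbouring genes named below are protein-coding unless another kind is given. Neither list names its genome build, so every placement of a gene below rests on taking both lists to be on Sscrofa11.1, and the positions printed are those of the listed anchors and TADs.

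Plasma cells are the antibody-secreting end stage of the B cell, and the spleen is one of the organs in which they form and reside. In mouse and human, IRF4 and PRDM1 (Blimp-1) switch the B cell programme off and the secretory one on, and XBP1 enlarges the endoplasmic reticulum for antibody production. ELL2 drives transcript elongation through the immunoglobulin heavy chain gene, favouring the secreted form, MZB1 helps antibody assembly, JCHAIN joins polymeric IgM and IgA, and SDC1 (CD138) is a surface marker of the cells. Splenic tissue holds many cell types, contacts are summed over all of them, and which cells carried a loop was not measured.

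A loop is a pair of bins, each 25 kb wide and called anchors, with more contacts than the pixels around it. The anchors of at least 1 loop held an end of 6 of the 8 genes, against 17.3% of all protein-coding genes, and nothing is read from that difference because the genes were chosen on it. PRDM1 and JCHAIN had 2 loops each, where 4.85% of protein-coding genes had 2 or more. Touching pixels are counted here as separate loops: the 3410 listed loops form 2352 touching groups, and the 2 loops of JCHAIN are a touching pair. ELL2, CREB3L2, MZB1 and SDC1 had 1 each, and XBP1 and IRF4 had none. Counted by the whole gene span instead of its ends, the same 6 genes touched an anchor, against 20.7% of all protein-coding genes. The map of loops and TADs around each gene shows 3 arrangements, namely loops reaching out from the gene, a loop within the gene and loops closing around it. IRF4 is in none of them, being far from any listed loop or TAD.

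**Figure D1:**
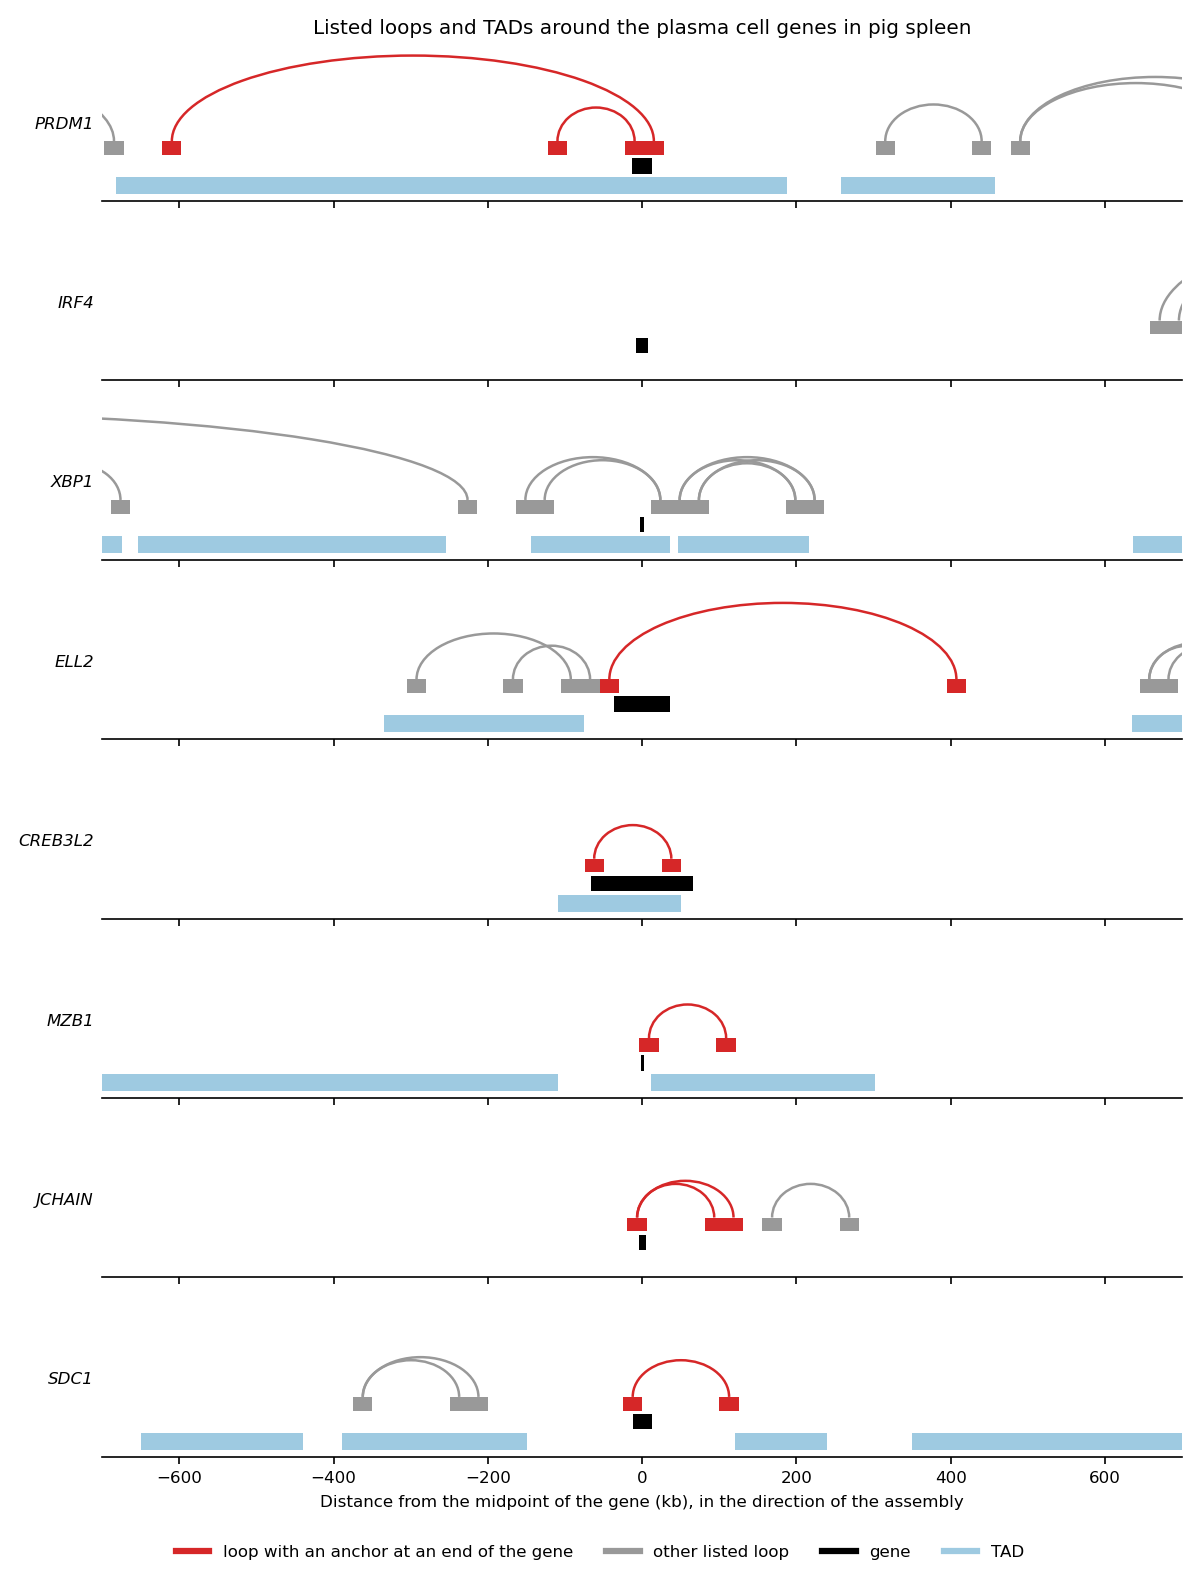
Loops (arcs between 25 kb anchors), TADs (blue bars) and the gene (black bar) within 700 kb of the midpoint of each of the 8 genes, the x axis being the distance in kb. Loops with an anchor at an end of the gene are red and other listed loops are grey; XBP1 lies under 2 grey loops, and IRF4 has no feature within 500 kb.

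Of the regulators, PRDM1 lay on chromosome 1, and its 2 ends fell in neighbouring anchors of different loops. The bin with its lower-coordinate end, 72300001 to 72325000, looped over 100 kb to the bin from 72200001 to 72225000, which held the unnamed gene LOC106507207. This loop had 92 observed contacts (exact 95% Poisson interval 74.2 to 113), against 57.6 expected from the surrounding donut of pixels, a ratio of 1.60. The bin with its other end, 72325001 to 72350000, also held an end of ATG5, which is needed for autophagy. It looped over 625 kb to the bin from 71700001 to 71725000, with 57 contacts (43.2 to 73.9), against 27.2 expected, a ratio of 2.10. That far anchor held no gene end and lay within the span of PREP, a prolyl endopeptidase, 204 kb from the nearest protein-coding end. Both loops therefore ran to the same side of PRDM1, and the next loops on the opposite side began 289.5 kb away.

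Both PRDM1 loops lay within a single TAD from 71640001 to 72510000. At 870 kb it was longer than 92.7% of the placed TADs, and PRDM1 stood 175 kb from its upper edge. It also held PREP, LOC106507207 and part of ATG5. Neither loop joined its edges: the nearest distance from an anchor to a TAD edge was 60.0 kb for the longer loop and 185 kb for the shorter.

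IRF4, near the start of chromosome 7, was the gene farthest from any listed feature. The nearest anchor, from 800001 to 825000, started 650.4 kb away, and its loop of 525 kb led away from the gene with 76 contacts against 29.4 expected. No protein-coding end lay in either of its anchors. Before that first anchor of the chromosome lay DUSP22, IRF4, EXOC2, FOXQ1 and FOXF2, none with a loop. The first TAD of chromosome 7 began at 5040001, 4890.4 kb beyond IRF4, and held TXNDC5, an endoplasmic reticulum disulfide isomerase, with BMP6 and BLOC1S5. On every other autosome the first TAD began earlier, from 220001 on chromosome 3 to 4430001 on chromosome 5. Chromosome starts were empty of loops elsewhere too. The earliest anchor on any placed chromosome started at 625001. It follows almost directly that 0 of the 201 protein-coding genes that begin in the first 500 kb of a chromosome had an end in an anchor. Whether the caller admitted loops so close to a chromosome start is not stated in the labels or headers.

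XBP1, on chromosome 14, had no end in an anchor but lay 8.47 kb outside one, the closest miss of the set. Its TAD ran from 45870001 to 46050000, a span of 180 kb, with TTC28, CHEK2, HSCB and CCDC117 as its other protein-coding genes. A pair of touching pixels closed around the same stretch. One joined 45875001 to 45900000 with 46025001 to 46050000 and had 118 contacts (97.7 to 141), against 59.8 expected, a ratio of 1.97. The other, starting 1 bin earlier, had 93 contacts (75.1 to 114), against 50.3 expected, a ratio of 1.85. Their shared right anchor met the TAD edge and held no protein-coding gene end, while both left anchors overlapped TTC28 and CHEK2, a kinase of the DNA damage response. Directly beyond, a block of 4 touching pixels, listed as loops of 125 to 175 kb, lay over ZNRF3, a ubiquitin ligase that removes Wnt receptors. The one with the highest ratio to expected contacts had 128 contacts against 49 expected, and none of the 4 had an anchor closer than 33.5 kb to XBP1.

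ELL2 lay on chromosome 2 and had the longest reach among the genes with a single loop. The bin with its lower-coordinate end, 102500001 to 102525000, joined the bin from 102950001 to 102975000, over 450 kb and across the gene itself. The loop had 67 contacts (51.9 to 85.1), against 25.9 expected, a ratio of 2.58 (2.0 to 3.28), the highest among the loops at these genes. No other protein-coding gene lay under it. Its far anchor held part of the lncRNA gene LOC106508433, with the nearest protein-coding end, of the prohormone convertase PCSK1, 29.8 kb away. ELL2 was in no TAD. The nearest one, with GLRX and RHOBTB3 among its 5 protein-coding genes, ended 38.6 kb before ELL2, and the bin adjoining the ELL2 anchor belonged to another loop, of 100 kb, that led back to an end of RHOBTB3.

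CREB3L2, an endoplasmic reticulum-bound transcription factor of the secretory pathway, was the longest of the genes at 133 kb, and lay on chromosome 18. Its loop lay almost wholly within it. The left anchor, 11525001 to 11550000, held an end of CREB3L2 and the adjacent end of AKR1D1, a steroid reductase of bile acid synthesis, 0.338 kb away, and the right anchor, 11625001 to 11650000, lay inside CREB3L2. The loop spanned 100 kb and had 134 contacts (112 to 159), against 69.6 expected, a ratio of 1.93. In the authors' deposited table its largest FDR over 4 neighbourhoods of pixels was 9.04e-06, the lowest among these loops. The TAD from 11490001 to 11650000, of 160 kb, ended with the right anchor and held 87.9% of the gene, so that the TAD edge fell within CREB3L2, 16.1 kb from its end.

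Of the genes of antibody assembly, MZB1 lay on chromosome 2 in a crowded anchor. The bin from 141275001 to 141300000 held ends of SLC23A1, a vitamin C transporter, PROB1, SPATA24 and the co-chaperone DNAJC18 as well as both ends of MZB1. It looped over 100 kb to an end of UBE2D2, a ubiquitin-conjugating enzyme, with 112 contacts (92.2 to 135), against 72 expected. The ratio of 1.56 was the lowest among these loops. MZB1 lay 10.3 kb outside a TAD from 141290001 to 141580000, so the anchor straddled the TAD edge and the loop entered the TAD.

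JCHAIN lay on chromosome 8, wholly inside the anchor from 67425001 to 67450000, with an end of ENAM, an enamel protein. This anchor had 2 loops, of 100 and 125 kb, to adjoining bins within RUFY3. They had 113 contacts (93.1 to 136), against 66.5 expected, and 110 contacts (90.4 to 133), against 66.7 expected, with ratios of 1.70 and 1.65. The 2 pixels touch, and with a single pixel per touching group JCHAIN had 1 loop. Neither far bin held a protein-coding gene end. Of the 8 genes JCHAIN was, after IRF4, the farthest from a TAD, at 1891 kb.

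SDC1 was on chromosome 3. Its lower-coordinate end lay in the anchor from 117975001 to 118000000, which held no other gene end. The loop spanned 125 kb, with 99 contacts (80.5 to 121), against 48.6 expected, a ratio of 2.04. Its far anchor, 118100001 to 118125000, held no annotated gene, and a TAD with LAPTM4A, MATN3 and WDR35 began in it at 118120001. SDC1 itself was in no TAD.

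**Figure D2:**
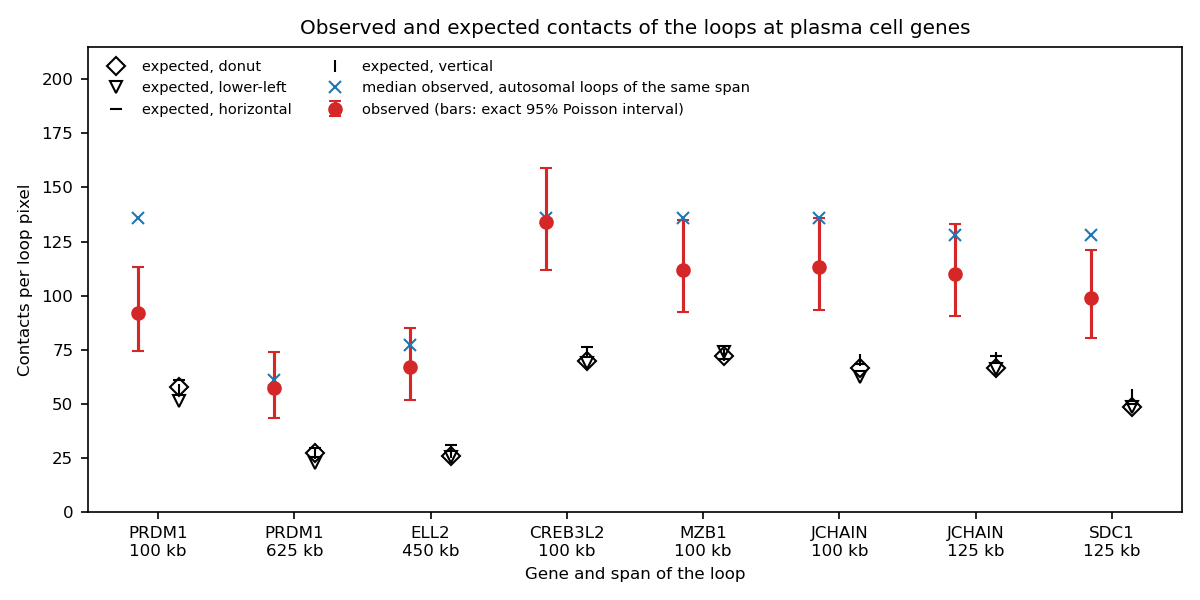
Contacts per loop pixel (y axis) of the 8 loops at plasma cell genes, with observed contacts in red (bars: exact 95% Poisson interval), the 4 expected values in black and the median of autosomal loops of the same span as a blue cross. All 8 observed values exceed their expected values and lie below the blue cross.

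The plot of observed and expected contacts sets the 8 loops side by side. They had a median of 104 observed contacts, from 57 to 134, where the other 3394 placed loops had a median of 108. Their median span was 112.5 kb against 175 kb, and 6 of the 8 spanned 100 or 125 kb, against 34.7% of the other placed loops. Those other loops include many with no gene end in an anchor, and the 8 include the touching pair of JCHAIN. Nothing particular to these genes is read from the difference in span. Since contacts fall with span, each loop was also set beside all autosomal loops of its span, itself and any others of the 8 included. All 8 had fewer observed contacts than the median of these, most clearly the 100 kb loop of PRDM1, with 92 contacts against a median of 136 over 719 loops. Just 4.17% of those 719 had fewer contacts. The CREB3L2 loop, with 134, was nearest to that median. These observed contacts are not normalized.

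The ratio to expected contacts, which takes the surroundings into account, divided the genes differently. It was above the median of same-span loops at ELL2 (2.58 against 2.44 over 35 loops), CREB3L2 (1.93 against 1.73 over 719 loops) and SDC1 (2.04 against 1.87 over 436 loops). It was below that median for both PRDM1 loops, both JCHAIN loops and the MZB1 loop, with 10.5% of 19 same-span loops lower at the longer PRDM1 loop, 11.9% of 436 at the longer JCHAIN loop, 15.9% of 719 at MZB1, 23.4% of 719 at the shorter PRDM1 loop and 44.2% of 719 at the shorter JCHAIN loop. In order the ratios were 2.58 at ELL2, 2.10 at the longer PRDM1 loop, 2.04 at SDC1, 1.93 at CREB3L2, 1.70 and 1.65 at JCHAIN, 1.60 at the shorter PRDM1 loop and 1.56 at MZB1. Neighbours in this order had overlapping Poisson intervals. Of the 28 pairs of loops, 3 had intervals that did not overlap, ELL2 (2.0 to 3.28) against the shorter PRDM1 loop (1.29 to 1.96), against the longer JCHAIN loop (1.36 to 1.99) and against MZB1 (1.28 to 1.87), and these pairs differ in span as well. The intervals cover the counting error of the observed contacts alone. They take the expected value as exact and leave out the spread between replicates.

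**Figure D3:**
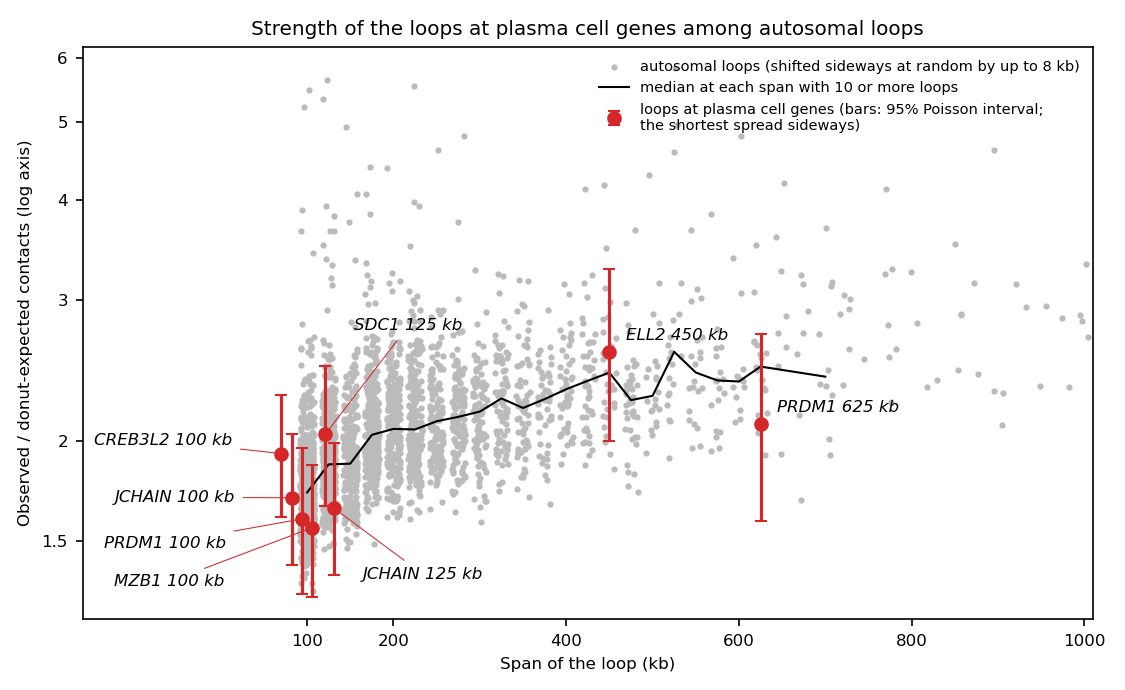
Ratio of observed to donut-expected contacts (log axis) against the span of the loop in kb, for autosomal loops (grey), their median (line, drawn only at the shorter spans with enough loops) and the 8 loops at plasma cell genes (red, with 95% Poisson intervals). Grey points and the shortest red loops are shifted sideways to keep them apart. ELL2, CREB3L2 and SDC1 lie above the median at their own span and the other 5 loops below it. The 139 autosomal loops beyond 1000 kb or a ratio of 6 are not drawn.

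By the FDR values of the authors' deposited table, 3 of the 8 loops had all 4 values under 0.01, those of CREB3L2 (largest value 9.04e-06), ELL2 (0.000242) and SDC1 (0.00467). In the authors' deposited table the other 5 had a largest value of 0.0198 to 0.0475, the highest listed being 0.0999, and 51.3% of the other placed loops also had a largest value above 0.01. Among the 1701 lowest-FDR loops, out of 3402 on placed chromosomes, 3 of the 8 genes kept an anchor at an end, against 9.34% of all protein-coding genes, and nothing is read from that difference either. By the whole gene span it was also 3 of 8, against 11.6% of all protein-coding genes. PRDM1, JCHAIN and MZB1 had none there.

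What the loops joined also varied. In 6 of the 8 loops the far anchor held no protein-coding gene end, in the 2 others it held LOC106507207 and UBE2D2. Among all loops with a protein-coding end in at least 1 anchor, 60.8% had none in the other, and nothing particular to these genes is read from the difference. Of the far anchors without an end, 4 lay within the span of a protein-coding gene, PREP, RUFY3 (both JCHAIN loops) and CREB3L2 itself, that of ELL2 lay in a lncRNA gene, and that of SDC1 in no annotated gene. None of the far anchors belonged to a second loop. No loop joined 2 of the 8 genes.

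The genes that shared the most loops with each were measured by the loops in common over the loops of either gene, across all placed loops. ENAM shared both loops of JCHAIN (1), and AKR1D1 the loop of CREB3L2 (1). SLC23A1, PROB1 and SPATA24 shared the MZB1 loop (1 each), as did DNAJC18 and UBE2D2. ATG5 and LOC106507207 each shared 1 of the 2 PRDM1 loops (0.5), and no gene shared a loop with ELL2 or SDC1. A shared bin of 25 kb cannot tell which of its genes the contact involves.

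With respect to TADs, 3 of the 8 genes (PRDM1, CREB3L2 and XBP1) had their midpoint inside one, against 31.1% of all protein-coding genes. An end within 20 kb of a TAD edge was found for 2 (CREB3L2 and MZB1), against 18.7%. Within 10 kb it was 0 of the 8 genes, against 11.1%, and within 40 kb it was 4, against 29.6%. With 8 genes, nothing about them is read from these counts. Allowing 20 kb past the TAD edges, 2 loops lay inside the TAD of PRDM1, 1 inside that of CREB3L2 and 2 inside that of XBP1. The TAD of PRDM1 was long, and neither of its loops reached an edge. Those of CREB3L2 and XBP1, of 160 and 180 kb, were longer than 5.36% and 14% of placed TADs and ended at an anchor.

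Wider lists of the same biology were counted in the same way, again with touching pixels as separate loops. Other plasma cell regulators and surface proteins had an end in an anchor in 4 of 25 (16%, Wilson interval 6.4 to 34.7%). These were IKZF1, the Ikaros factor of lymphocytes, with 3 loops of 100 to 250 kb, IL6ST, the signalling chain of the IL-6 receptor, with 2, ITGA4, an integrin chain of homing, with 2, and PTPRC (CD45) with 1. Genes of secretion in the endoplasmic reticulum and the unfolded protein response had one in 16 of 63 (25.4%, 16.3 to 37.3%). SDF2L1, an endoplasmic reticulum chaperone partner, and ATF4, the transcription factor of the stress response, had 3 loops each. SEL1L, of the degradation complex, and SSR3, of the translocon, had 2 each, and ATF6 and DNAJB11 also had 2. ERN1, the sensor that splices the XBP1 transcript, had no end in an anchor.

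Of the list drawn up as B cell genes shut off in plasma cells, 7 of 27 (25.9%, 13.2 to 44.7%) were at anchors. Whether each is shut off was not measured here. BCL6, the germinal centre repressor that PRDM1 opposes, had 3 loops of 250 to 1150 kb, and FCER2 (CD23), ID3 and CD40 had 1 each, as had BACH2, SYK and EBF1. Of the transcription elongation factors that act with ELL2, 2 of 20 (10%, 2.79 to 30.1%) were at anchors, MLLT3 with 2 loops and AFF3 with 1 of 700 kb.

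The families of the 8 genes were small. At anchors were 1 of 4 further CREB3 genes (CREB3L4, with 2 loops), 2 of 13 PRDM genes (PRDM12 and PRDM2), 2 of 8 other IRF genes (IRF3 and IRF1) and 1 of 3 other syndecans. Beside the loop of SDC1, with 99 contacts over 125 kb, that syndecan, SDC3, had 2 loops of 100 and 125 kb with 145 to 176 contacts. The Wilson intervals of these 8 lists all include the 17.3% of all protein-coding genes, as the plot of list shares shows, and they take genes as independent although neighbours can share an anchor. The lists were also drawn up with earlier results of these data known, so the intervals describe counting error and test nothing.

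**Figure D4:**
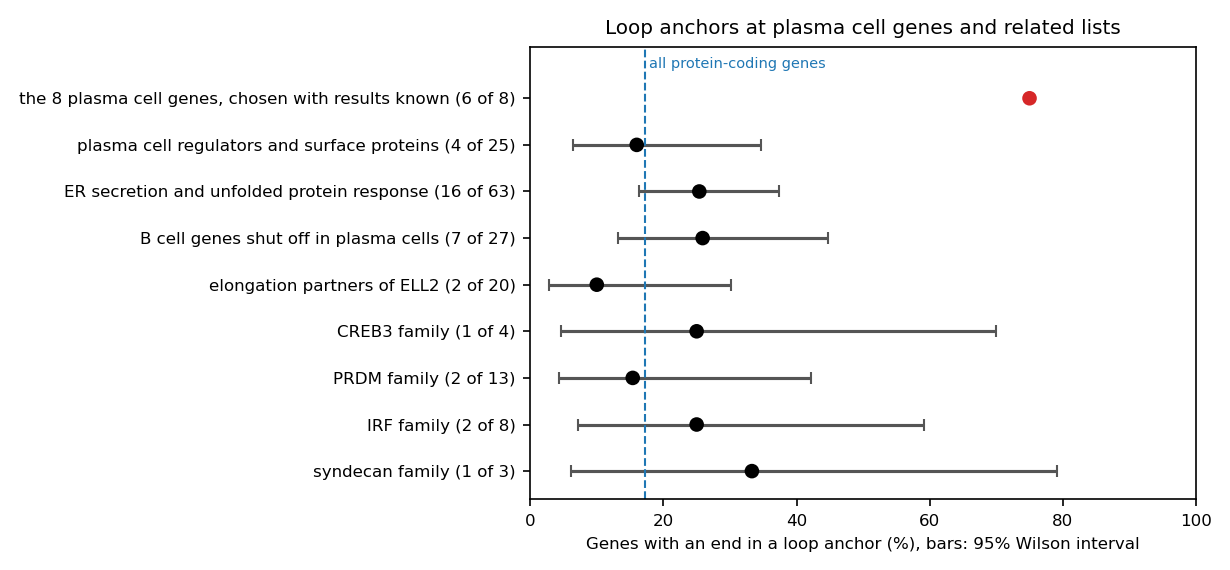
Percentage of genes with an end in a loop anchor (x axis) for the 8 plasma cell genes (red, chosen by their loops in this list and drawn without an interval) and 8 related lists (black, bars: 95% Wilson interval), drawn up by function with earlier results known, with the 17.3% of all protein-coding genes as a dashed line. The intervals of the 8 lists all span the line.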

How the data were processed

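Per the labels' protocols, spleen nuclei were crosslinked and digested by DpnII, and the biotin-marked ends were ligated, captured and sequenced in 2 biological replicates. The submitters' processing notes name HiC-Pro 3.1.0, and the file headers name juicer_tools 1.9.9 for the loop list. For each loop the deposited list gives the observed contact count, not normalized, and 4 expected signal values in the unit of those counts. It also gives 4 q-values (FDR), per the file headers, and the largest of the 4 was used here. The deposited TAD list holds starts and ends on a 10 kb grid, and no caller is stated for it. Neither list gives values per replicate or says whether replicates were pooled, and the sequencing depth is unknown.

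No header names the genome build. Genes came from a RefSeq table of Sscrofa11.1, and on 16 of 18 autosomes the last listed loop or TAD ended before the last annotated gene. The table has no strand, so both gene ends were used in place of start sites. An anchor held a gene end when the end lay within its 25 kb, and coordinates count from 1. Of 167 list entries in 8 lists, 163 matched a gene by symbol or by a synonym held by a single gene. All counts were made with Python 3.11.15 and pandas 2.3.3, and exact Poisson and Wilson intervals, both at 95%, with scipy 1.17.1. Assignment to anchors was checked with artificial genes placed on the listed loops, either at the middle of an anchor or outside all anchors. For 400 of 400 the planted number of loops was returned. This checks the counting rule alone, and placement in TADs was not checked. The members and lists were chosen with earlier results of these data known, and no test was made.

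The genes named were the 8, those sharing an anchor with them, the most alike by shared loops, neighbours in the same TAD and up to 4 genes of each list with the most loops, ties by summed contacts. ATF6, DNAJB11, BACH2, SYK, EBF1 and ERN1 were added after their values were seen. Alternatives were anchors widened by 10 kb, a single pixel per touching group, the 1701 loops with the lowest FDR, loops of at least 50 contacts, gene midpoints, other neighbourhoods and other TAD rules.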

Additional observations from a re-analysis of the deposited data

How the results depend on the processing

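Of 108 values recomputed under an alternative, 76 stayed within set limits and 32 did not. For a ratio of a single loop the limit was the Poisson interval, and for a share of all genes the Wilson interval. For the other values it was 1.5 times. All are counts, shares, medians or ratios without a sign, so a change of direction was not tested. With the 1701 lowest-FDR loops, out of 3402 placed ones, 3 of the 8 genes had an end in an anchor, 3 touched one by their span (against 11.6% of all protein-coding genes) and 3 loops were left at their ends, while the share of all protein-coding genes was 9.34% and 16 of the 162 distinct list genes were at anchors in place of 35. Fewer loops are counted there by construction. With anchors widened by 10 kb, XBP1 gained both of its flanking loops and 7 of the 8 genes were at anchors, against 24.5% of all protein-coding genes and 57 list genes. The share of all protein-coding genes was 14.7% with a single pixel per touching group, 16.3% with loops of at least 50 contacts, 9.98% by gene midpoints and 15.7% over all annotated genes. The shares of all protein-coding genes under these alternatives, by span and at TAD edges too, were added after the data were seen; that over all annotated genes was not. By gene midpoints 4 of the 8 genes were at anchors. By the gene span the share of all protein-coding genes was 26.4% with widened anchors and 18.7% with a single pixel per group. A 10 kb window put 0 of the 8 genes at a TAD edge, against 11.1% of all protein-coding genes, and a 40 kb window 4, against 29.6%, in place of 2 and 18.7%. All 24 ratios to the other 3 neighbourhoods lay inside the Poisson interval of the donut ratio. The start-site alternative was not run because the gene table has no strand. No replicate could be left out, and no paired analysis was possible because the lists hold no value per replicate.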
